A study of Mus musculus with 16 samples.

Results

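A set of 10 genes that bring fatty acids into fat tissue and hold them inside the cell was followed in gonadal white adipose tissue (gWAT) of 16 male mice. They were Lpl, Gpihbp1, Angptl4, Vldlr, Cd36, Slc27a1, Cav1, Fabp4, Fabp5 and Acsl1. The set was picked by name for a role in fatty acid uptake and binding, with earlier results of these data known. They made up 10 of the 19373 genes in the deposited table. All 16 mice carried floxed Mboat7 alleles on a C57Bl6/J background. Control mice were Mboat7 flox/flox without Cre, and Mboat7 ASKO mice also carried Cre recombinase driven by the adiponectin promoter and enhancer, which deletes Mboat7 in adipocytes only and leaves it in the other cells of the tissue. Each genotype was fed either chow or a high-fat diet (HFD) for 20 weeks, with 4 mice in each of the 4 groups. The mice were age-matched and fasted before saline perfusion and tissue collection, and their age was not given in the sources used here. The comparisons ask how diet, loss of adipocyte Mboat7 and their combination changed the RNA of these genes.

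Circulating triglyceride enters fat mainly through lipoprotein lipase, which adipocytes make and secrete. GPIHBP1 carries the lipase to the surface of capillary endothelial cells, ANGPTL4 inactivates it, and the VLDL receptor binds triglyceride-rich lipoproteins beside it. The fatty acids that are released cross the plasma membrane with the help of CD36, FATP1 (Slc27a1) and the caveolae built from caveolin-1 (Cav1). Inside the cell they are bound by FABP4 and FABP5 and are linked to coenzyme A by ACSL1, the first step toward storage or oxidation.

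One of the 10 genes shares most of its coding sequence with other genes in the table. Fabp5 (ENSMUSG00000027533.10, mm10 chr3:10012548-10016607, plus strand, 4 exons) has a processed pseudogene copy, Gm6166 (ENSMUSG00000074280.5, mm10 chr9:57483963-57484371, plus strand), of 409 bases in a single exon. The copy aligned to bases 93 to 499 of the 987-base Fabp5 transcript, whose coding part runs from base 93 to base 497, with 98.3% identity, 5 mismatches, 2 gap bases and a longest stretch of 179 bases without a difference. A second gene, Gm14328, was 97.3% identical to Fabp5 over 408 aligned bases. The following stretches of 120 bases, from the GENCODE M21 transcripts, are shown because a read that falls between the capitals cannot be assigned to either gene. The Fabp5 stretch covers bases 351 to 470 of its transcript (exon 3, chr3:10015478-10015573, and exon 4, chr3:10016067-10016090) and the Gm6166 stretch lies at chr9:57484223-57484342. Capitals mark the 2 bases that differ.
Fabp5: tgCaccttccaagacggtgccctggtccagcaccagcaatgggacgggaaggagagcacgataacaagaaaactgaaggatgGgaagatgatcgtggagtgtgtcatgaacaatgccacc
Gm6166: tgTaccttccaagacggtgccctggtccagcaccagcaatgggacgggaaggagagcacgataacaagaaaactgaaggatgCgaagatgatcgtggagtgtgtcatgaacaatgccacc
None of the other 9 genes had another gene with at least 95% identity over at least 200 bases.

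The other genes lie at separate places in the mm10 genome. Lpl is at chr8:68880491-68907448, Gpihbp1 at chr15:75596628-75599481, Angptl4 at chr17:33773750-33781830 and Vldlr at chr19:27216484-27254231. Cd36 is at chr5:17781690-17888801, Slc27a1 at chr8:71568882-71587302 and Cav1 at chr6:17306335-17341452. Fabp4 (chr3:10204088-10208576) is on the same chromosome as Fabp5, and Acsl1 is at chr8:46471037-46536051. Exons of Acsl1 overlap Gm45244 on the opposite strand, and the exons of the other 9 genes overlap those of no other annotated gene. The locus listed for Cav1 in the deposited table, chr6:17198107-17385604, reaches beyond the annotated gene.

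Values are FPKM, fragments scaled by gene length and by the mapped fragments of the library, so levels can be compared between genes. Their sum was 606407 to 982016 per mouse, the 10 highest genes took 32.6 to 55.2% of it, and 2 mice (control HFD replicate 1 and Mboat7 ASKO HFD replicate 3) were over 50%. Read counts were not given. The spacing of low FPKM values gave a rough depth of 249000 to 426000 fragments per mouse, at which the median mouse had about 5.3 fragments behind Gpihbp1, 6.6 behind Slc27a1, 20 behind Angptl4, 22 behind Vldlr and 28 behind Fabp5, against 186 behind Acsl1 and 1656 behind Fabp4. Mboat7 itself was listed at 2.42, 4.33, 0.902 and 4.99 FPKM in control mice on chow and at 0, 1.39, 0 and 2.89 FPKM in Mboat7 ASKO mice on chow. On HFD it was listed at 0, 0, 2.15 and 1.61 FPKM in control mice and at 1.14, 0, 2.60 and 0 FPKM in Mboat7 ASKO mice. The genotypes overlapped on both diets, so in whole tissue at this depth Mboat7 does not check the genotype labels.

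The 10 genes spanned a wide range of levels. Averaged over the 16 mice, Fabp4 stood at 8054 FPKM, 9th of all genes in the table. Cav1 (425 FPKM), Lpl (418 FPKM) and Cd36 (377 FPKM) followed with ranges across mice that overlapped one another, from 232 to 672, 190 to 942 and 168 to 511 FPKM. Acsl1 (149 FPKM) had the narrowest spread, 1.59-fold between its lowest and highest mouse, and its range of 113 to 179 FPKM lay within that of Fabp5 (mean 102, range 14.5 to 205 FPKM). Gpihbp1 (30.9 FPKM) and Angptl4 (18.0 FPKM) came next with overlapping ranges. Slc27a1 (8.29 FPKM) and Vldlr (7.93 FPKM) were lowest and could not be ordered by their ranges of 1.87 to 16.5 and 2.36 to 12.2 FPKM.

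**Figure D1:**
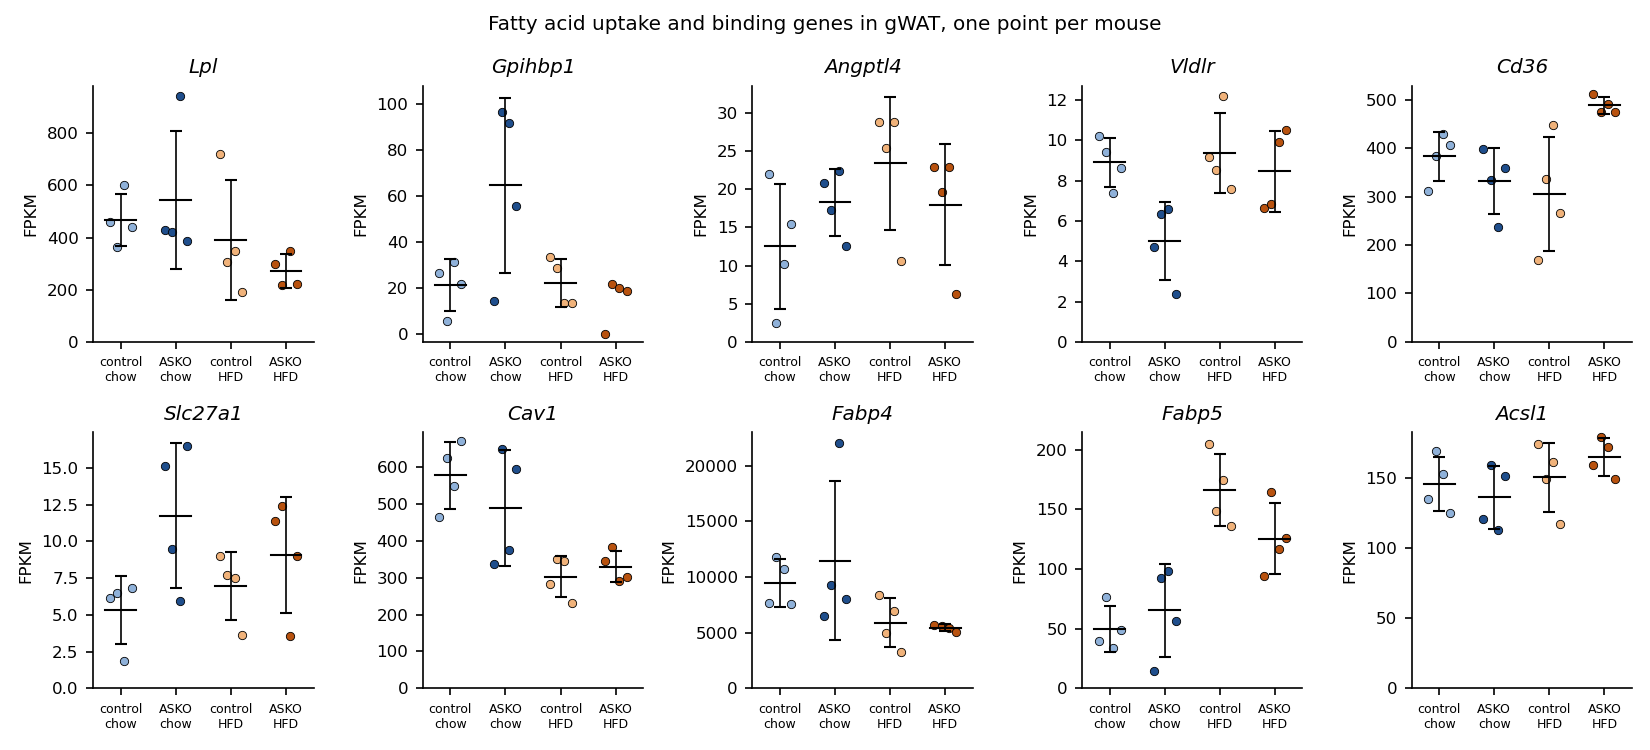
FPKM (y axis, from 0, a separate scale in each panel) of the 10 genes in every mouse of the 4 groups (x axis). Points are mice, the horizontal line is the group mean and the bars are 1 SD (n = 4), left out for Gpihbp1 in Mboat7 ASKO mice on HFD because 1 mouse was listed at 0. All 8 HFD mice had at least 93.8 FPKM of Fabp5, and the 4 Mboat7 ASKO mice on HFD sat closely together for Cd36 (475 to 511 FPKM) and Fabp4 (5052 to 5709 FPKM).

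All 10 genes passed the filter on low values and were tested among the 13148 genes left by a minimum of 1 FPKM in 4 or more mice. Fold changes are differences of group means of log2(FPKM + 1) from one limma fit, which understates the change of low genes, and a gene was called at an adjusted p under 0.05 (Benjamini-Hochberg over the 13148 genes) with an absolute log2 fold change above 0.5. Diet in control mice called 1 of the 10 genes, Fabp5, against 2.91% of all tested genes, and diet in Mboat7 ASKO mice called none of them against 3.43%. Genotype called none on chow and none on HFD, against 0.00761% (1 gene of 13148) in each, and the genotype-by-diet interaction called none against 0%. An unadjusted p under 0.05 (limma) was reached by 3 of the 10 genes for diet in control mice and 5 for diet in Mboat7 ASKO mice. It was reached by 2 for genotype on chow, 1 for genotype on HFD and 1 for the interaction. Among all 13148 tested genes it was reached by 1870 and 1974 for diet in control and Mboat7 ASKO mice. For genotype on chow and on HFD these numbers were 631 and 677, and for the interaction 828. When the diet effect was averaged over both genotypes, a comparison added after the data were seen, 3 of the 10 genes were called, Fabp5, Fabp4 and Cav1, against 7.53% of all genes. In data simulated for diet in control mice over 13148 genes, a log2 change of 1 was called in 1.6% of changed genes, one of 2 in 29.2% and one of 3 in 66.4%. Only a small part of the genes, drawn at random over all levels, was changed there, and fewer changed genes make the adjusted threshold stricter. These rates therefore do not carry over to the real comparison, where 383 genes were called, or to the more abundant of the 10 genes.

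**Figure D2:**
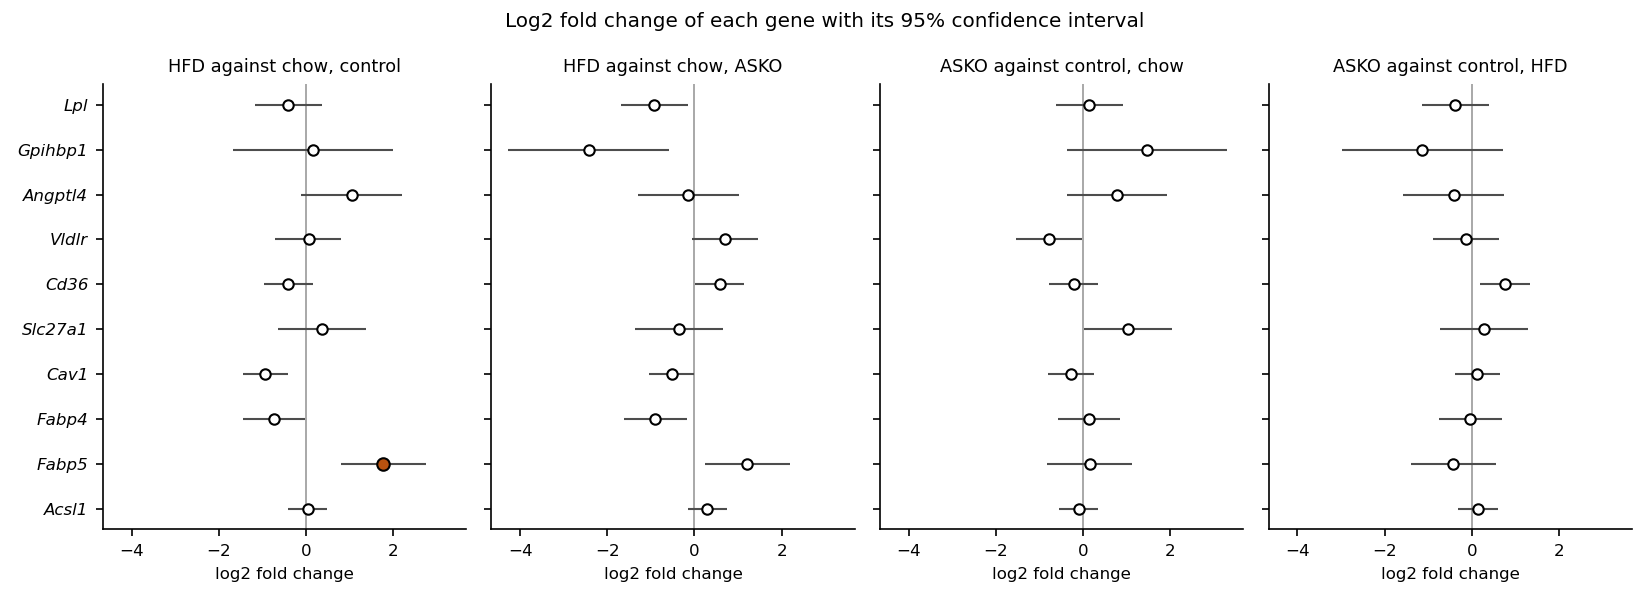
Log2 fold change of log2(FPKM + 1) (x axis) with its 95% confidence interval for each of the 10 genes (y axis) in 4 comparisons. Filled circles mark called genes: only Fabp5 in control mice (1.78) is filled, and the interval of Gpihbp1 is the widest in all 4 panels.

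Levels of cell type markers differed with diet in the same mice. Summed FPKM of 12 adipocyte markers was 2788 to 6408 on chow and 1194 to 2660 on HFD. In control mice 3 markers were called lower and 1 higher, with 10 of the 12 log2 fold changes negative. In Mboat7 ASKO mice 6 were called lower and 1 higher, with 11 of 12 negative. Summed FPKM of 12 macrophage markers was 231 to 313 on chow and 656 to 1273 on HFD, with 7 markers called higher among control mice and 9 among Mboat7 ASKO mice. The 12 endothelial markers summed to 35.3 to 90.6 FPKM on chow and 43.2 to 111 FPKM on HFD, and none of them was called. Of the 10 fibroblast markers, 2 were called higher among control mice and 1 among Mboat7 ASKO mice, with 9 positive in each genotype. Their sum was 315 to 441 FPKM on chow and 553 to 872 FPKM on HFD. Mesothelial markers summed to 21.9 to 59.4 FPKM on chow and 0.835 to 20.5 FPKM on HFD. On chow these sums were 30.5 to 59.4 FPKM in control mice and 21.9 to 37.5 FPKM in Mboat7 ASKO mice. In control mice 2 of 7 mesothelial markers were called lower on HFD and all 7 were negative. In Mboat7 ASKO mice none was called and 6 of 7 were negative. Fabp5 and Cd36 are also made by macrophages and Cav1 also by endothelial cells, while Gpihbp1 is made by capillary endothelial cells. The part of these cell types in the values of these genes was not tested. In bulk tissue fewer cells of a type and less RNA per cell cannot be told apart. Of the tested markers of skeletal muscle (3), red cells (4) and brown adipocytes (3) none was called in either genotype alone. In the averaged comparison 1 (Pvalb, of the muscle list) was called higher on HFD. The 1 epididymis marker in the table was at 0 in 15 of 16 mice. None of the marker lists had a gene called between genotypes.

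**Figure D3:**
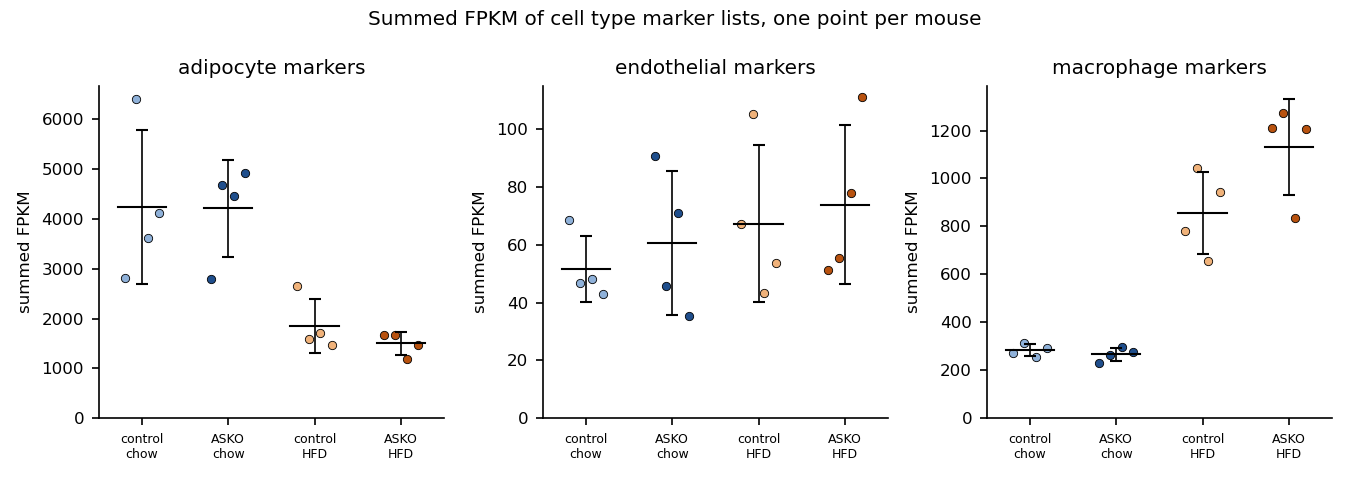
Summed FPKM (y axis, from 0) of the adipocyte, endothelial and macrophage marker lists (12 genes each) in every mouse of the 4 groups (x axis), with group means and 1 SD (n = 4). Macrophage sums on HFD (656 to 1273) lie above all those on chow (231 to 313), and adipocyte sums on HFD (1194 to 2660) lie below all those on chow (2788 to 6408).

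Fabp5, a fatty acid binding protein made by adipocytes, endothelial cells and macrophages, was the gene with the largest called change. It stood at 39.4, 76.9, 33.6 and 48.7 FPKM in control mice on chow and at 205, 149, 175 and 136 FPKM in control mice on HFD. Every control mouse on HFD was above every control mouse on chow, and the means were 49.7 ± 19.2 and 166 ± 30.2 FPKM (SD, n = 4). Its log2 fold change with HFD was 1.78 (SE 0.46, 95% CI 0.80 to 2.75, adjusted p = 0.0471, limma), a 3.43-fold rise. The call was lost without any 1 of 12 of the 16 mice (all 4 control mice on HFD, all 4 Mboat7 ASKO mice on HFD, control chow replicates 0, 2 and 3 and Mboat7 ASKO chow replicate 3), with adjusted p up to 0.142 and log2 fold changes of 1.62 to 1.87. The call in control mice was also lost with a pseudocount of 0.1, no filter and no intensity trend (adjusted p = 0.0578, 0.0745 and 0.0819, limma). Scaling without the 10 highest genes, adjustment over 5 contrasts and leaving out the 2 mice over 50% lost it too (adjusted p = 0.0613, 0.102 and 0.117, limma). In Mboat7 ASKO mice Fabp5 was at 14.5, 92.4, 98.2 and 56.2 FPKM on chow and at 93.8, 165, 117 and 126 FPKM on HFD. The diets overlapped there by a narrow margin, since the lowest mouse on HFD fell between the 2 highest on chow. The log2 fold change of 1.21 (SE 0.46, adjusted p = 0.201) was not called, and it did not differ from that of the control mice beyond error (interaction -0.57, 95% CI -1.95 to 0.82, adjusted p = 0.918). Averaged over both genotypes Fabp5 rose by 1.49 on the log2 scale (SE 0.33, adjusted p = 0.00815), and that call held under each of the 16 leave-one-out fits, with adjusted p between 0.00244 and 0.0206. Summed macrophage markers separated the diets as Fabp5 did in control mice, and their part in its rise was not tested.

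The near-identical Gm6166 showed the same direction as Fabp5. It was listed at 89.7, 39.0, 62.7 and 48.0 FPKM in control mice on chow and at 114, 109, 130 and 152 FPKM in control mice on HFD, without overlap. Mboat7 ASKO mice had 22.8, 45.1, 44.5 and 47.8 FPKM on chow and 96.2, 118, 91.4 and 89.4 FPKM on HFD, again without overlap. Its log2 fold change with HFD was 1.12 (SE 0.30, adjusted p = 0.0541) in control mice and 1.33 (SE 0.30, adjusted p = 0.0181) in Mboat7 ASKO mice. Gm14328 was listed at 0 in all 4 control mice on chow and at 0 to 33.2 FPKM in the other 12 mice. How the fragments of Fabp5 and the copies were divided was not tested. With both copies added to Fabp5, each weighted by its length, the level was 59.6 to 93.0 FPKM in control mice on chow and 199 to 255 FPKM in control mice on HFD. This sum had a log2 fold change of 1.57 (adjusted p = 0.0398) in control mice and 1.19 (adjusted p = 0.129) in Mboat7 ASKO mice.

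Fabp4, the main fatty acid binding protein of adipocytes, moved the other way. Control mice had 7641, 11820, 10714 and 7543 FPKM on chow and 8347, 4960, 6964 and 3303 FPKM on HFD. A single HFD mouse reached into the chow range, and the log2 fold change of -0.73 (95% CI -1.45 to -0.02, adjusted p = 0.337) was not called. Mboat7 ASKO mice had 6522, 9235, 22038 and 7983 FPKM on chow and 5709, 5592, 5433 and 5052 FPKM on HFD. All 4 HFD mice were below all 4 chow mice and lay close together (5447 ± 286 FPKM, SD, n = 4), whereas chow replicate 2, at 22038 FPKM, stood far above every other mouse. Diet gave a log2 fold change of -0.90 (95% CI -1.62 to -0.18, adjusted p = 0.197). Leaving out 1 mouse at a time gave -1.11 to -0.53, the smallest fall being without chow replicate 2 (adjusted p = 0.427, limma). Quantile normalization gave -0.15 (adjusted p = 0.886, limma). Averaged over both genotypes Fabp4 fell by 0.82 on the log2 scale (SE 0.24, adjusted p = 0.0474). That call was lost under each of 4 rescalings of the mice, where the fall was 0.51 to 0.77 with adjusted p between 0.0536 and 0.214, and without any 1 of 13 mice (all but Mboat7 ASKO chow replicate 0 and control HFD replicates 0 and 2), with adjusted p up to 0.0977. It was also lost with a pseudocount of 0.1, no filter, no intensity trend and without the 2 mice over 50% (adjusted p = 0.0613, 0.0841, 0.112 and 0.140). Its fall went together with the lower summed adipocyte markers given above, whose part in it was not tested. Between genotypes Fabp4 differed by 0.13 on chow and by -0.03 on HFD, both with adjusted p at or above 0.999.

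Because Fabp5 and Fabp4 bind the same ligands, their ratio was taken within each mouse as log2((FPKM + 1)/(FPKM + 1)). On chow it was -7.56, -7.25, -8.28 and -7.24 in control mice and -8.72, -6.63, -7.80 and -7.12 in Mboat7 ASKO mice. On HFD it was -5.34, -5.05, -5.30 and -4.59 in control mice and -5.91, -5.07, -5.53 and -5.31 in Mboat7 ASKO mice. All 8 HFD mice were above all 8 chow mice. The ratio rose by 2.31 on the log2 scale with HFD, 4.96-fold (p = 0.000408, the smallest p that the 4900 label combinations can give, two-sided exact permutation test, adjusted p = 0.00612 over 15 ratio tests), by 2.51 in control mice and by 2.11 in Mboat7 ASKO mice. Genotype moved it by -0.18 (adjusted p = 0.649, exact permutation test). With the copies of Fabp5 included the diet difference was 2.20 (adjusted p = 0.00612, exact permutation test).

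**Figure D4:**
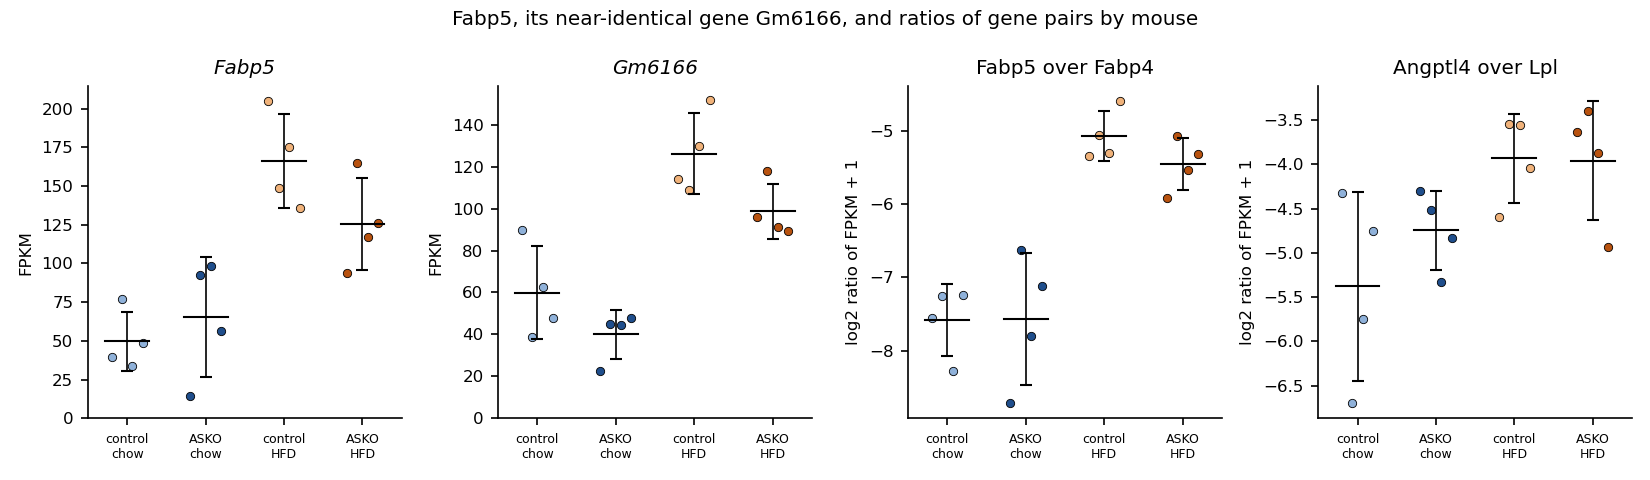
FPKM (y axis, from 0) of Fabp5 and of its near-identical gene Gm6166, and log2 ratios of FPKM + 1 (y axis) of Fabp5 over Fabp4 and Angptl4 over Lpl, for every mouse of the 4 groups (x axis). Lines are group means and bars 1 SD (n = 4). The 8 HFD mice lie above the 8 chow mice for Fabp5 over Fabp4 (-5.91 to -4.59 against -8.72 to -6.63), and 1 control mouse on chow (89.7 FPKM) is level with the lowest HFD mouse (89.4 FPKM) for Gm6166.

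Acsl1, the acyl-CoA synthetase that activates long-chain fatty acids in adipocytes, was the steadiest of the 10 genes. Its values were 135, 169, 153 and 125 FPKM in control mice on chow and 174, 149, 161 and 117 FPKM in control mice on HFD. In Mboat7 ASKO mice it had 121, 159, 113 and 151 FPKM on chow and 159, 179, 172 and 149 FPKM on HFD. All comparisons overlapped, and its log2 fold changes lay between -0.10 and 0.29 over both diet and both genotype comparisons, with adjusted p of at least 0.595. The 95% confidence intervals of these differences reached no further than -0.56 and 0.74.

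Lpl, which codes for lipoprotein lipase, was lower on HFD in Mboat7 ASKO mice without passing the test. Control mice had 460, 362, 601 and 439 FPKM on chow and 720, 305, 348 and 190 FPKM on HFD. These overlapped throughout, and the log2 fold change was -0.40 (95% CI -1.17 to 0.37, adjusted p = 0.715). It was -0.75 without control HFD replicate 0 and -0.11 without replicate 3 of that group. Mboat7 ASKO mice had 430, 420, 942 and 386 FPKM on chow and 299, 217, 349 and 222 FPKM on HFD, so the 2 diets did not overlap. This was a log2 fold change of -0.92 (SE 0.36, 95% CI -1.69 to -0.15, unadjusted p = 0.0216, adjusted p = 0.222, limma). Leaving out 1 mouse at a time gave -1.05 to -0.63, with the smallest fall without replicate 2 of the chow group, the mouse at 942 FPKM. Without that mouse the genotype difference on chow went from 0.14 to -0.15. The difference between the 2 diet effects was -0.53 (95% CI -1.61 to 0.56, adjusted p = 0.905), and -0.81 to -0.17 with single mice left out.

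Gpihbp1, the capillary anchor of the lipase, was the most scattered of the genes and rested on few fragments. Control mice had 26.7, 5.80, 31.3 and 21.9 FPKM on chow and 33.6, 28.7, 13.6 and 13.6 FPKM on HFD. Mboat7 ASKO mice had 14.6, 96.5, 91.5 and 55.5 FPKM on chow, while on HFD 1 mouse was listed at 0 and the others had 21.8, 20.0 and 18.7 FPKM. The 3 highest values of the series were thus all in Mboat7 ASKO mice on chow, and the fourth mouse of that group was below 3 of the 4 control mice on chow. The log2 fold change of Mboat7 ASKO against control mice was 1.46 on chow (95% CI -0.38 to 3.30, adjusted p = 0.983) and -1.14 on HFD (95% CI -2.98 to 0.71, adjusted p = 0.993). Diet moved it by -2.43 in Mboat7 ASKO mice (95% CI -4.28 to -0.59, adjusted p = 0.166), and leaving out 1 mouse at a time gave -3.02 to -1.33. Without the mouse listed at 0 (HFD replicate 0) the genotype difference on HFD was -0.04 and the interaction -1.49. The interaction of -2.59 (95% CI -5.20 to 0.01, unadjusted p = 0.0510, adjusted p = 0.791) over all mice was not called.

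Angptl4, the fasting-induced inhibitor of lipoprotein lipase, had 22.0, 2.50, 10.2 and 15.4 FPKM in control mice on chow and 28.8, 25.4, 28.8 and 10.6 FPKM in control mice on HFD. Values in Mboat7 ASKO mice were 20.9, 17.3, 22.4 and 12.6 FPKM on chow and 23.0, 19.7, 22.9 and 6.30 FPKM on HFD. In control mice 3 of the 4 HFD values were above all chow values, and in Mboat7 ASKO mice the diets overlapped. The log2 fold change with HFD was 1.05 in control mice (95% CI -0.11 to 2.20, adjusted p = 0.413) and -0.14 in Mboat7 ASKO mice (95% CI -1.29 to 1.01, adjusted p = 0.950). The interaction was -1.19 (95% CI -2.82 to 0.44, adjusted p = 0.842). Without control chow replicate 1, the mouse at 2.50 FPKM, the diet difference in control mice was 0.50 and the interaction -0.64.

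Vldlr, the lipoprotein receptor of the group, was lowest in Mboat7 ASKO mice on chow. They had 4.70, 6.35, 6.59 and 2.36 FPKM, all below the 10.2, 9.42, 7.36 and 8.61 FPKM of control mice on chow. On HFD control mice had 9.17, 8.52, 12.2 and 7.57 FPKM and Mboat7 ASKO mice had 6.65, 6.83, 9.90 and 10.5 FPKM, which overlapped with each other. The Mboat7 ASKO mice on HFD lay above those on chow by a narrow margin (6.65 against 6.59 FPKM). The genotype difference on chow was -0.78 on the log2 scale (SE 0.36, 95% CI -1.54 to -0.03, unadjusted p = 0.0430, adjusted p = 0.983, limma). The diet difference in Mboat7 ASKO mice was 0.70 (95% CI -0.05 to 1.46, adjusted p = 0.376), against 0.06 in control mice (95% CI -0.70 to 0.81), and their difference was 0.65 (95% CI -0.42 to 1.71, adjusted p = 0.864).

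Ratios of these genes to Lpl were taken within each mouse in the same way. Angptl4 over Lpl was -4.32, -6.70, -5.75 and -4.75 in control mice on chow and -4.60, -3.54, -3.55 and -4.04 in control mice on HFD. In Mboat7 ASKO mice it was -4.30, -4.52, -5.33 and -4.83 on chow and -3.64, -3.40, -3.87 and -4.93 on HFD. RNA of the inhibitor was thus higher relative to that of the lipase on HFD, by 1.12 on the log2 scale or 2.17-fold (p = 0.00612, adjusted p = 0.0327, two-sided exact permutation test), although single mice overlapped. The ratio rose by 1.45 in control mice and by 0.78 in Mboat7 ASKO mice. In Mboat7 ASKO mice Angptl4 itself changed by -0.14 and Lpl by -0.92, and neither gene was called in either genotype. Vldlr over Lpl rose with HFD by 1.04, 2.06-fold (p = 0.00653, adjusted p = 0.0327, exact permutation test), by 0.46 in control mice and by 1.63 in Mboat7 ASKO mice. The difference between these 2 diet effects was 1.17 (adjusted p = 0.220, exact permutation test). Group means of Vldlr over Lpl were -5.54 ± 0.45 and -5.09 ± 0.74 in control mice on chow and HFD and -6.47 ± 0.53 and -4.85 ± 0.43 in Mboat7 ASKO mice (SD, n = 4). Both ratios to Lpl lost their call when single mice were left out, with adjusted p up to 0.0837 for each by the exact permutation test, without 10 of the 16 mice for Angptl4 (control chow replicates 1 to 3, Mboat7 ASKO chow replicates 2 and 3, control HFD replicates 1 to 3 and Mboat7 ASKO HFD replicates 0 and 1) and without 10 for Vldlr (control chow replicates 2 and 3, Mboat7 ASKO chow replicates 2 and 3, control HFD replicates 1 to 3 and Mboat7 ASKO HFD replicates 0, 1 and 3). Gpihbp1 over Lpl changed by -0.47 with diet, 0.28 with genotype and -2.07 for the interaction, with adjusted p of 0.688, 0.747 and 0.367 (exact permutation test). Without the mouse listed at 0 for Gpihbp1 they were 0.10, 0.86 and -0.91.

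Cd36, the fatty acid translocase of adipocytes, capillary endothelium and macrophages, gave the smallest unadjusted p of the 10 genes for genotype on HFD. Control mice on HFD had 168, 337, 447 and 266 FPKM and Mboat7 ASKO mice on HFD had 511, 475, 492 and 475 FPKM. The groups did not overlap, and their means were 305 ± 117 and 488 ± 17.5 FPKM (SD, n = 4), a coefficient of variation of 38.5% against 3.59%. Their log2 difference was 0.76 (SE 0.27, 95% CI 0.20 to 1.33, unadjusted p = 0.0106, adjusted p = 0.856, limma), and it lay between 0.51 and 0.98 when 1 mouse at a time was left out. Macrophage markers, none of them called, summed to 656 to 1045 FPKM in control and 835 to 1273 FPKM in Mboat7 ASKO mice on HFD, with 11 of 12 positive and a median log2 difference of 0.43, and their part in the Cd36 difference was not tested. On chow the order was the other way, with 312, 384, 429 and 407 FPKM in control mice and 399, 335, 238 and 358 FPKM in Mboat7 ASKO mice, which overlapped. Their log2 fold change was -0.22 (95% CI -0.78 to 0.34, adjusted p = 0.983). Diet moved Cd36 by -0.41 in control mice (adjusted p = 0.550) and by 0.58 in Mboat7 ASKO mice (adjusted p = 0.316), where the diets did not overlap. The interaction of 0.98 (SE 0.38, 95% CI 0.19 to 1.78, unadjusted p = 0.0183, adjusted p = 0.663) was the smallest p of the 10 genes in that comparison and was not called, and no rescaling, filter or left-out mouse brought its adjusted p below 0.376.

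Slc27a1, which codes for the fatty acid transport protein FATP1, was low in every mouse. It had 6.15, 6.50, 1.87 and 6.80 FPKM in control mice and 15.1, 9.46, 5.96 and 16.5 FPKM in Mboat7 ASKO mice on chow. Of the Mboat7 ASKO mice, 3 were above all control mice and 1 was among them. The log2 fold change was 1.02 (SE 0.48, 95% CI 0.01 to 2.03, unadjusted p = 0.0474, adjusted p = 0.983, limma). On HFD it had 8.98, 7.72, 7.50 and 3.65 FPKM in control mice and 11.4, 12.4, 3.55 and 9.04 FPKM in Mboat7 ASKO mice, with a log2 fold change of 0.29 (95% CI -0.72 to 1.30). The log2 ratio of Acsl1 over Slc27a1, the 2 genes that act together in trapping fatty acids as acyl-CoA, differed by -0.64 between genotypes (p = 0.0735, adjusted p = 0.220, exact permutation test) and by 0.15 between diets (adjusted p = 0.688, exact permutation test). Without Mboat7 ASKO HFD replicate 2 the genotype difference of this ratio was -0.82 and passed the test (adjusted p = 0.00612, exact permutation test). That was the only 1 of the 16 left-out mice to give a call, and the others gave adjusted p up to 0.402. This mouse had the highest ratio of its group, 5.25 against 3.69 to 3.90. Slc27a1 rested on about 6.6 fragments in the median mouse.

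Cav1, the main coat protein of caveolae, was lower on HFD. Control mice had 466, 625, 548 and 672 FPKM on chow and 284, 351, 346 and 232 FPKM on HFD, without overlap. The log2 fold change of -0.93 (SE 0.25, 95% CI -1.45 to -0.41, adjusted p = 0.0501, limma) lay just outside the threshold and passed it under 6 of 15 other settings of the fit and without Mboat7 ASKO chow replicate 0, 1 or 2 (adjusted p = 0.0333, 0.0429 and 0.0381), with adjusted p between 0.0312 and 0.163 over all alternatives. Mboat7 ASKO mice had 336, 649, 376 and 596 FPKM on chow and 345, 383, 290 and 303 FPKM on HFD. Here 2 of the chow mice were as low as the HFD mice, and the log2 fold change was -0.52 (95% CI -1.04 to 0, adjusted p = 0.334). Averaged over both genotypes Cav1 fell by 0.73 on the log2 scale (SE 0.17, adjusted p = 0.0148), and the call held in each of the 16 leave-one-out fits with adjusted p between 0.00651 and 0.0352. Cav1 fell beside lower summed adipocyte markers while endothelial sums overlapped between diets, and their part in it was not tested. The averaged call was lost with quantile normalization (adjusted p = 0.0507), upper-quartile scaling (adjusted p = 0.0554) and without an intensity trend (adjusted p = 0.0671).

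Counted by groups that did not overlap, 2 of the 10 genes separated the diets in control mice (Fabp5 and Cav1, against 8.34% of all tested genes) and 4 separated them in Mboat7 ASKO mice (Cd36 and Vldlr higher on HFD, Lpl and Fabp4 lower, against 9.60%). The margin of Vldlr was narrow, with 6.59 FPKM in the highest chow mouse and 6.65 FPKM in the lowest HFD mouse. Genotype separated 1 of the 10 on chow (Vldlr, against 2.19%) and 1 on HFD (Cd36, against 3.38%). The diet effect had the same sign in both genotypes for 6 of the 10 genes (60%) and for 59.7% of all tested genes. The median log2 fold change of the 10 genes with HFD was 0.05 for control mice, beside 0 over all tested genes, and -0.25 for Mboat7 ASKO mice, beside 0.03.

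**Figure D5:**
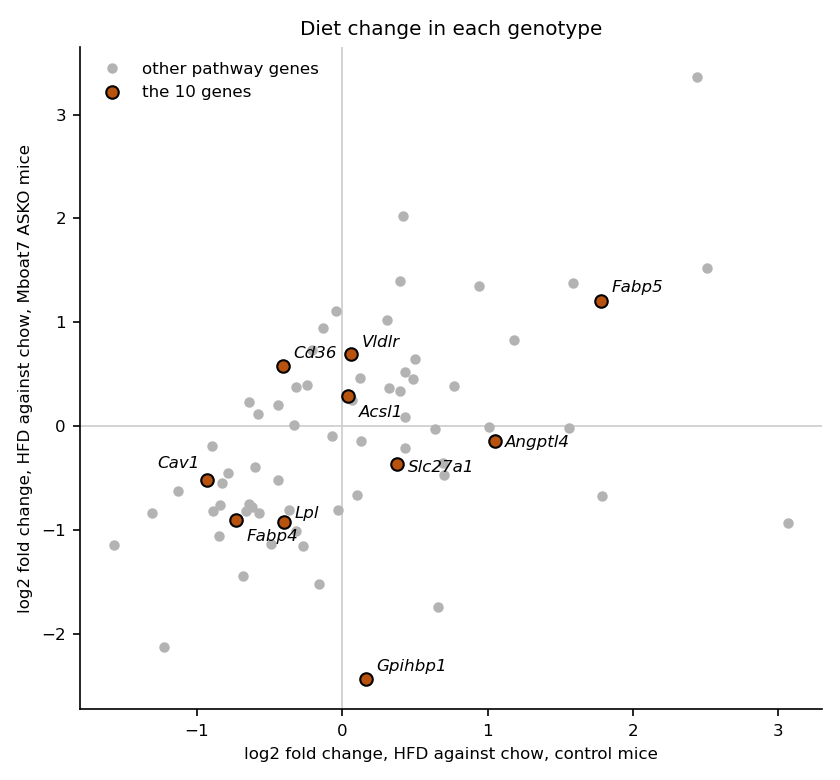
Log2 fold change of HFD against chow, with control mice on the x axis and Mboat7 ASKO mice on the y axis, for the 10 genes (filled, named) and the other tested genes of the 6 related lists (grey). Fabp5 lies at 1.78 and 1.21, and Cav1, Fabp4 and Lpl are negative on both axes, while Gpihbp1 (0.16 and -2.43), Cd36 (-0.41 and 0.58), Angptl4 (1.05 and -0.14) and Slc27a1 (0.38 and -0.36) differ in sign between the axes.

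Of 80 further genes listed for the same pathway, 74 were in the table and 61 were tested. Diet called 3 of the 61 in control mice (2 higher, 1 lower) and 4 in Mboat7 ASKO mice (3 higher, 1 lower), that is 4.92 and 6.56%, and no genotype comparison called any. Over all tested genes these shares were 2.91 and 3.43%. Averaged over both genotypes, 3 were called higher (Msr1, Ehd4 and Pacsin2) and 7 lower (Sort1, Pcsk6, Dbi, Rbp4, Cav2, Cavin2 and Cebpa). This was 16.4% of the 61 against 7.53% of all tested genes. Of the 7, Sort1, Pcsk6, Rbp4 and Cavin2 were named after their values were seen. Among the 15 tested genes that control lipoprotein lipase none was called in either genotype alone, and 2 were called lower in the averaged comparison. These were Sort1, a sorting receptor (-0.80, adjusted p = 0.0414, limma), and Pcsk6, a proprotein convertase (-1.36, adjusted p = 0.0200, limma). The most abundant of them, Apoe, which codes for an apolipoprotein of triglyceride-rich particles, had 730 to 1761 FPKM on chow and 480 to 1167 FPKM on HFD, with log2 fold changes of -0.62 and -0.78 (adjusted p = 0.452 and 0.291).

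Among 7 tested lipoprotein receptors only the macrophage scavenger receptor Msr1 was called. It was listed at 0 to 2.05 FPKM on chow and at 1.60 to 31.2 FPKM on HFD, and rose by 2.44 on the log2 scale in control mice (SE 0.59, adjusted p = 0.0308) and by 3.36 in Mboat7 ASKO mice (SE 0.59, adjusted p = 0.00338). None of the 13 other fatty acid binding, transport and activation genes was called in either genotype alone. Dbi, the acyl-CoA binding protein and the most abundant of them, had 571 to 2181 FPKM on chow and 463 to 1006 FPKM on HFD, with log2 fold changes of -0.85 and -1.05 (adjusted p = 0.261 and 0.131). In the averaged comparison Dbi fell by 0.95 (adjusted p = 0.0252, limma) and Rbp4, the retinol binding protein of plasma, by 1.07 (adjusted p = 0.0140, limma).

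The 9 tested genes of the caveola coat and neck were called in both directions. Cav2, the partner of caveolin-1 in the coat, fell by 1.13 in control mice (SE 0.28, adjusted p = 0.0312), from 79.1 to 105 FPKM on chow to 28.5 to 62.5 FPKM on HFD. In Mboat7 ASKO mice it changed by -0.62 (adjusted p = 0.298). Ehd4, an ATPase that remodels membranes at caveolae and endosomes, rose by 2.51 in control mice (SE 0.35, adjusted p = 0.000617) and by 1.52 in Mboat7 ASKO mice (SE 0.35, adjusted p = 0.0229). Pacsin2, which bends membrane at the caveola neck, rose by 2.02 in Mboat7 ASKO mice (SE 0.47, adjusted p = 0.0223) and changed by 0.42 in control mice (adjusted p = 0.776). Averaged over both genotypes Cavin2, a caveola coat protein, also fell, by 0.69 (adjusted p = 0.0318, limma). The difference between the diet effects of the 2 genotypes on Pacsin2 was 1.60 (SE 0.66, adjusted p = 0.737) and was not called.

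None of the 9 genes of endothelial fatty acid transport was called. The most abundant, Nrp1, a co-receptor for VEGF-B, had 13.3 to 34.2 FPKM on chow and 16.9 to 35.0 FPKM on HFD. Of 8 tested genes among the PPARs and their partners, Cebpa, an adipogenic transcription factor, fell by 1.13 in Mboat7 ASKO mice (SE 0.30, adjusted p = 0.0484), from 51.3 to 115 FPKM on chow to 33.3 to 42.6 FPKM on HFD. In control mice Cebpa changed by -0.49 (adjusted p = 0.516), and the difference of the 2 effects was -0.64 (adjusted p = 0.842).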

How the data were processed

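Gonadal fat RNA of 16 mice was sequenced from directional mRNA libraries. The authors trimmed the reads and, per the labels and the study's methods, aligned them to mm10 with STAR and estimated FPKM per gene with Cufflinks (the submitters' processing notes also name Cuffdiff). The deposited table holds FPKM values and no read counts, so no count model was used and depth is approximate. FPKM is a share of each library, so a few very abundant genes lower the rest. Gene positions and transcripts were taken from GENCODE M21, which held 99.6% of the table's identifiers, and near-identical genes were found with blastn 2.17.0+.

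Groups were taken from the sample labels, and replicates are separate mice. log2(FPKM + 1) of genes reaching 1 FPKM in 4 or more mice was fitted with limma 3.58.1 (R 4.3.3, intensity trend, group means) for 5 comparisons, adjusted within each by Benjamini-Hochberg. The diet effect averaged over genotypes was added after the data were seen. Ratios of 2 genes within a mouse were compared with a two-sided exact permutation test within the strata of the other factor, adjusted over 15 tests. For the interaction the genotype labels were permuted within each diet, so its p is exact only where genotype changes the ratio on neither diet. Tests were checked on simulated data. Python 3.11.15, pandas 2.3.3, numpy 2.4.6 and matplotlib 3.10.9 were used.

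The 10 genes, the 6 related gene lists and the marker lists (adipocyte, endothelial, macrophage, fibroblast, mesothelial, skeletal muscle, red cell, brown adipocyte, epididymis) were chosen with earlier results of these data known. Named genes were the 10 genes, every gene of the 6 lists called in at least 1 of the 5 comparisons and otherwise the gene of a list with the highest mean FPKM. Alternatives changed the pseudocount, filter, scaling, moderation, weights, adjustment, fold limit and pairing, and left out each mouse in turn. The alternatives without the 2 mice whose 10 highest genes took over 50% of the FPKM sum, and with Fabp5 counted together with its copies, were chosen after seeing the data.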

Additional observations from a re-analysis of the deposited data

Results flagged for a closer look

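Among 60 sets of 4 values (10 genes and 5 ratios in 4 groups), 6 held a mouse whose gap to the nearest of the others took a share of its group's whole range above Dixon's 95% critical value for 4 samples, where chance gives about 1 set in 20. Lpl was 942 FPKM in 1 Mboat7 ASKO mouse on chow, against 386 to 430 FPKM in the other 3. Gpihbp1 was listed at 0 FPKM in 1 Mboat7 ASKO mouse on HFD, against 18.7 to 21.8 FPKM in the others, and the log2 ratio of Gpihbp1 over Lpl in that mouse was -8.23, against -4.06 to -3.26. In control mice on chow 1 value of this ratio was -5.74, against -4.27 to -4.06. Slc27a1 was 1.87 FPKM in 1 control mouse on chow, against 6.15 to 6.80 FPKM. The log2 ratio of Acsl1 over Slc27a1 was 5.25 in 1 Mboat7 ASKO mouse on HFD, against 3.69 to 3.90. Gpihbp1 and Slc27a1 had the fewest estimated fragments of the 10 genes, about 5.3 and 6.6 in the median mouse.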

How the results depend on the processing

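Over 2124 values of the 10 genes and the ratios under other settings, 1994 kept their direction and their side of the threshold, 66 lost and 11 gained a call, and 53 turned, none of the turned ones being called. The cause of these changes was not tested. Fabp5 kept its call for diet averaged over both genotypes under each alternative run. The number of the 10 genes called for diet in control mice was 0 with no filter, no trend, adjustment over 5 contrasts or without the 2 mice over 50%, 2 with a filter of 5 FPKM, robust estimation or array weights, and 0 to 2 when mice were left out singly. With a pseudocount of 0.1 or scaling without the 10 highest genes the number stayed at 1, but the gene was Cav1 (adjusted p = 0.0499 and 0.0478, limma) in place of Fabp5. For diet averaged over both genotypes the number was 1 under quantile normalization, upper-quartile scaling or no trend, and 2 to 4 with single mice left out. Same-numbered mice of different groups shared only a number (correlations of their deviations -0.187 to 0.152 over 24 pairs, 1 of them above 0.1). With the replicate block 2 genes were called for diet in control mice, and the diet differences of 2.31 (Fabp5 over Fabp4), 1.12 (Angptl4 over Lpl) and 1.04 (Vldlr over Lpl) each had an adjusted p of 0.117 (exact permutation test). The smallest unadjusted p of the blocked test is 0.00781. After adjustment over 15 tests a single ratio at that limit can go no lower than 0.117. Fabp5 over Fabp4, with all HFD mice above all chow mice, was at that limit, so its lost call says nothing about stability. Neither ratio to Lpl was at the limit, since control replicate 0 was lower on HFD than on chow. It had -4.60 against -4.32 for Angptl4 over Lpl and -6.15 against -5.37 for Vldlr over Lpl. For Angptl4 over Lpl, Mboat7 ASKO replicate 3 was lower on HFD as well (-4.93 against -4.83). Vldlr over Lpl lost its call without the 2 mice over 50% (0.93, adjusted p = 0.0980, exact permutation test). Under quantile normalization Fabp4 turned to 0.46 and -0.26 for genotype on HFD and chow and 0.72 for the interaction, and Acsl1 to -0.03 for diet in control mice. Scaling without the 10 highest genes gave Fabp4 0.13, -0.02 and 0.15 in the same order, Vldlr 0.01 for genotype on HFD and -0.03 for diet in control mice, Lpl -0.01 and Fabp5 0 for genotype on chow, Acsl1 -0.06 for diet in control mice and Angptl4 0.07 for diet in Mboat7 ASKO mice. Upper-quartile scaling gave Fabp4 0.02 for genotype on HFD and Angptl4 0.07 for diet in Mboat7 ASKO mice. Array weights gave Fabp4 0.02 for genotype on HFD and Slc27a1 0 for averaged diet. Without the 2 mice over 50%, Angptl4 was 0.07 for genotype on HFD and 0.27 for diet in Mboat7 ASKO mice, and Slc27a1 -0.04 for averaged diet. Fabp5 with its copies was -0.01 for genotype on chow, and Gpihbp1 over Lpl was -0.10 for genotype with a pseudocount of 0.1. With single mice left out, genotype differences on HFD were -0.28 to 0.17 for Fabp4 and -0.74 to 0 for Angptl4, and those on chow -0.15 to 0.28 for Lpl, -0.24 to 0.35 for Fabp4 and -0.15 to 0.75 for Fabp5. Diet differences in control mice were -0.34 to 0.41 for Gpihbp1, -0.07 to 0.14 for Vldlr and -0.03 to 0.15 for Acsl1, that of Angptl4 in Mboat7 ASKO mice was -0.30 to 0.27, and averaged ones were -0.02 to 0.21 for Cd36 and -0.16 to 0.18 for Slc27a1. The interaction of Fabp4 was -0.41 to 0.21. Ratios with single mice left out were -0.34 to 0.01 (Fabp5 over Fabp4, genotype), -0.73 to 0.10 (Gpihbp1 over Lpl, diet), 0.90 to 1.29 (Angptl4 over Lpl, diet), 0.94 to 1.22 (Vldlr over Lpl, diet) and, for Acsl1 over Slc27a1, -0.03 to 0.34 for diet and -0.82 to -0.45 for genotype. Over all tested genes, calls for diet in control mice were 383, 255 when the other groups were left out of the fit and 231 without the 2 mice over 50%, with 255 to 421 when single mice were left out (lowest without control chow replicate 1). In Mboat7 ASKO mice they were 451, 265 when the other groups were left out and 286 with adjustment over 5 contrasts, with 265 to 493 when single mice were left out (lowest without Mboat7 ASKO HFD replicate 0). For genotype they were 1 on each diet, with 0 to 13 on HFD and 0 to 11 on chow, and for the interaction 0 to 8. Other scalings moved the median of all genes to at most 0.25, for the interaction without the 10 highest genes. Depth limits Gpihbp1 and Slc27a1 most, with a counting error of about 44 and 39% in the median mouse.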
